A study of Mus musculus with 4 samples.

Results

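Defence genes whose products are secreted onto the nasal lining, or carry antibody to it, were compared between young adult and aged mice. They are the lysozymes *Lyz1* and *Lyz2*, the peroxidase *Lpo*, the iron binder *Ltf*, the antibody transporter *Pigr*, the whey acidic protein (WAP) domain genes *Slpi*, *Wfdc2* and *Wfdc18*, the lectin *Reg3g* and the agglutinin *Dmbt1*. They were chosen by gene symbol, through the transcript accession of each probe. These 10 genes are read by 12 of the 56605 non-control probes and are 10 of the 45616 genes tested. *Ltf* and *Wfdc18* were lower in aged than in young adult mucosa, by 1.59-fold and 1.46-fold. *Dmbt1* and *Lyz2* had smaller values in aged mucosa that did not pass the test, and *Lpo*, *Pigr* and *Wfdc2* had nearly the same mean in both ages. *Slpi* gave no single answer, because its 2 probes moved in opposite directions.

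RNA came from septal nasal mucosa of C57BL/6J mice of 2 ages, young adult (8 weeks) and aged (16 months), with no treatment described. The labels used name no allele or agent that differed between the ages. RNA was hybridized to 4 one-color Agilent arrays, 2 per age, and each array holds RNA pooled from 5 animals. The methods give fewer mice per age for gene analyses than separate pools would need, so the pools of an age may hold some of the same animals. The arrays of an age may then not be independent, and the SDs and p-values measure only the spread between these arrays, which may be partly technical. The labels call the tissue olfactory epithelium, the methods call it nasal mucosa, and a label on lung cells after silica describes neither and was not used. A label also files the age under a tag for days after silica, and the ages were taken from the source name.

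Between 63.13% and 76.8% of the non-control spots of an array were well above background, no spot was saturated, and the median local background ran from 32 to 67 intensity units. Young 1 and aged 1 share a slide, and young 2 and aged 2 lie on a slide each. The animals are described as male, yet *Xist*, the RNA that coats and silences an X chromosome in female cells, was well above background on all 4 arrays (612 to 645), while 1 of 11 probes for 8 Y-linked genes, that of *Sry*, was well above background, on a single array (young 2). The markers of the labelled tissue were present, with *Omp*, the marker protein of mature olfactory receptor neurons, at 293444 ± 10441 in young and 325213 ± 10434 in aged mucosa (SD, n = 2). *Cyp2a5*, a cytochrome of the sustentacular cells that surround those neurons, was at 325217 in young and 332667 in aged mucosa.

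A watery film with mucus covers the nasal epithelium, and glands and surface cells release into it proteins that act on microbes before they reach the cells. Lysozymes cut the bacterial cell wall, peroxidases turn thiocyanate into an oxidant, lactoferrin withholds iron, and lectins and agglutinins bind the microbial surface. Polymeric antibody is carried to the surface by a receptor whose outer part is then released, and WAP domain proteins limit the proteases of white blood cells or act on bacteria directly.

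The table of RefSeq promoters (GRCm38.p6 assembly) held 9 of the 10 genes, all but *Dmbt1*. The 120 bases that end just before the gene's start are printed for 4 of them. The first pair is shown because *Lyz1* and *Lyz2* are neighbouring copies, and capitals mark the bases that differ between them. The *Lyz1* window is chr10:117292869-117292988 on the minus strand and the *Lyz2* window is chr10:117282273-117282392 on the same strand.
Lyz1: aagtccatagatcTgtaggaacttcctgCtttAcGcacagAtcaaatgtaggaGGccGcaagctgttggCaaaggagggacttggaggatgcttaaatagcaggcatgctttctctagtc
Lyz2: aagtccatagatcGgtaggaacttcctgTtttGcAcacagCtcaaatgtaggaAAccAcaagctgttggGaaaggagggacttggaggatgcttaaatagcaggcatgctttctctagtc
Of these 120 bases, 111 were identical. Over the full 250 bases before the start, 200 of 252 aligned columns were identical (79.4%).

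The other sequences belong to the genes that passed the test, *Ltf* at chr9:111019172-111019291 and *Wfdc18* at chr11:83708884-83709003, both on the plus strand, and capitals mark the letters TATAAA.
Ltf: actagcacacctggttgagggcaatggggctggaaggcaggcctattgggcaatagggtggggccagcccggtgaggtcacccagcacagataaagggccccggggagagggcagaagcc
Wfdc18: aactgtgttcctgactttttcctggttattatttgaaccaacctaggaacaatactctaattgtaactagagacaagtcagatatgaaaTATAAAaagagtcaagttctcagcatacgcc
The letters TATAAA, searched on both strands of the 250 bases before each start, are in 13.0% of 27025 mouse promoters. They were found in 2 of the 9 windows, once in *Wfdc18*, starting 31 bases before the start, and at 2 places in *Reg3g*. The letters TTCNNNGAA (in 7.18% of all windows) and TGANTCA (6.87%), also searched on both strands, were in none of the 9 windows.

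An expression level here is the background-corrected, quantile-normalized intensity of an array, averaged over the probes of a gene, and n is the number of pooled arrays per age. A gene was called where limma gave P below 0.05 and a Benjamini-Hochberg false discovery rate (FDR) below 0.25 over all genes. A called gene was a differentially expressed gene (DEG) if its mean level reached 100 and its fold change reached 1.5. Of the 10 genes, 2 were called lower in aged mucosa and 0 higher, where 2.33% of all genes were called lower, 1.65% higher and 3.98% in either direction. All 10 have a mean level of at least 100, and 5.41% of all genes at that level were called in either direction. Only *Ltf* was a DEG, beside 1.96% of all genes that were DEGs in either direction and 1.15% that were DEGs lower in aged mucosa. P was below 0.05 for 4 of the 10 genes (*Ltf*, *Wfdc18*, *Dmbt1* and *Lyz2*, all lower), against 13.1% of all genes in either direction and 7.09% lower. The arrays of the 2 ages did not overlap for 7 of the 10 genes, 6 lower and 1 higher in aged mucosa, but this was so for 46% of all genes and for 57.8% of the genes with a mean of at least 100, so the count says little about these genes. The median log2 fold change was -0.15 over the 10 genes and 0.01 over all genes. All 12 probes were well above background on all 4 arrays.

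**Figure D1:**
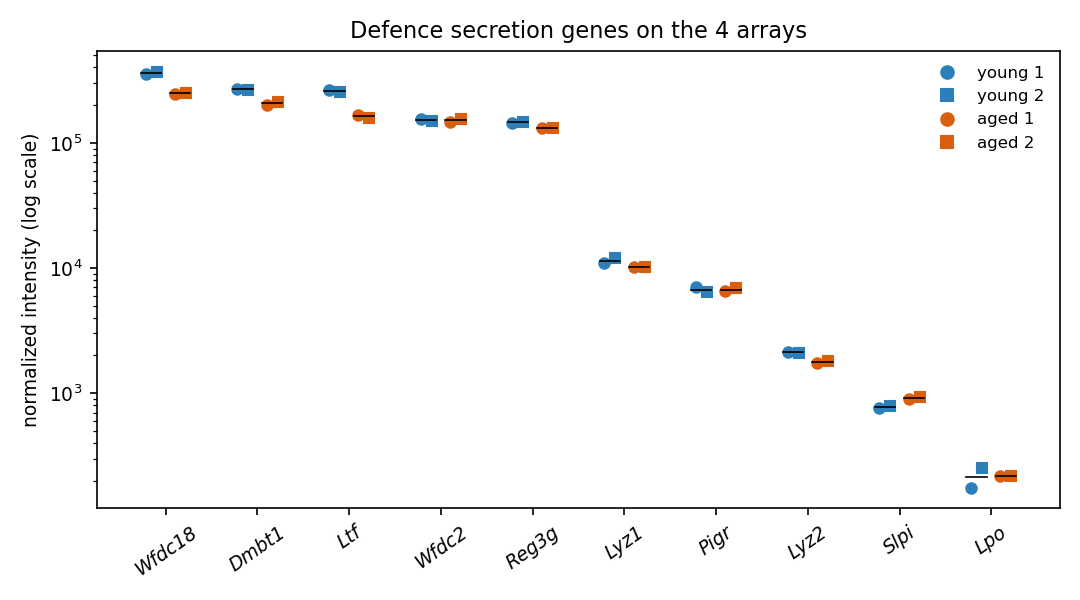
Normalized intensity (vertical axis, log scale) of each of the 10 defence genes on each of the 4 arrays, 2 of young and 2 of aged mucosa, with a line at the mean of each age. The arrays of *Ltf*, *Wfdc18* and *Dmbt1* lie apart by age, with aged below young, while those of *Lpo*, *Pigr* and *Wfdc2* overlap.

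*Ltf* encodes lactoferrin, which binds iron and is secreted by glands and stored in neutrophil granules. Its level was 265972 and 254071 on the young arrays and 167851 and 158251 on the aged arrays. Both aged arrays were thus well below both young arrays. The means were 260021 ± 8415 in young and 163051 ± 6788 in aged mucosa (SD, n = 2), a log2 fold change of -0.67 (SE 0.084, 95% confidence interval -0.93 to -0.42, limma FDR = 0.2011). Before any correction the spots read 273072 and 259133 on the young arrays and 161514 and 156169 on the aged arrays, so the gap was already there in the scanned signal. The difference was -0.66 on the shared slide and -0.68 between the other arrays.

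*Wfdc18*, a secreted protein with a WAP domain, was likewise lower on both aged arrays than on both young arrays. It was at 356542 and 371216 on the young arrays and at 246236 and 251226 on the aged arrays. The means were 363879 ± 10376 and 248731 ± 3528 (SD, n = 2), and the log2 fold change was -0.55 (SE 0.078, 95% confidence interval -0.78 to -0.32, limma FDR = 0.2082). The fall was short of the 1.5-fold limit of a DEG. It was -0.53 on the shared slide and -0.56 between the other arrays.

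*Dmbt1* encodes a large mucin-like glycoprotein that agglutinates bacteria. Its level was 270153 and 265966 on the young arrays and 201839 and 211283 on the aged arrays, with no overlap. The log2 fold change was -0.38 (SE 0.078, 95% confidence interval -0.61 to -0.14), and at an FDR of 0.2644 by limma it lay just outside the threshold. It was -0.42 on the shared slide and -0.33 between the other arrays.

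The probes of these 3 genes and of *Wfdc2* and *Reg3g* gave high intensities. Of the 92 genes at least as intense as the dimmest of these 5, the 5 included, 2 were called higher (*Mt2* and *Vmo1*) in aged mucosa. Another 4 were called lower (*Ltf*, *Wfdc18*, *Lcn4* and *Lcn11*), and *Ltf* and *Wfdc18* are themselves among the 5. Over all genes, 1.65% were called higher and 2.33% lower. The median log2 fold change of the 92 genes was 0.01. In pooled tissue, fewer cells of a type and less RNA per cell cannot be told apart for any of these differences.

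*Reg3g*, a C-type lectin that binds the cell wall of Gram-positive bacteria, was at 144336 and 146643 on the young arrays and at 132091 and 131484 on the aged arrays. Both aged arrays were below both young ones, but by little, and the log2 fold change of -0.14 (SE 0.074, 95% confidence interval -0.36 to 0.08) was not called (limma FDR = 0.5266). *Wfdc2*, a WAP domain protein secreted by many epithelia, was at 156178 and 149679 on the young arrays and at 147975 and 156178 on the aged arrays. Its ages overlapped, with a log2 fold change of -0.01 (95% confidence interval -0.26 to 0.24, limma FDR = 0.9732).

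**Figure D2:**
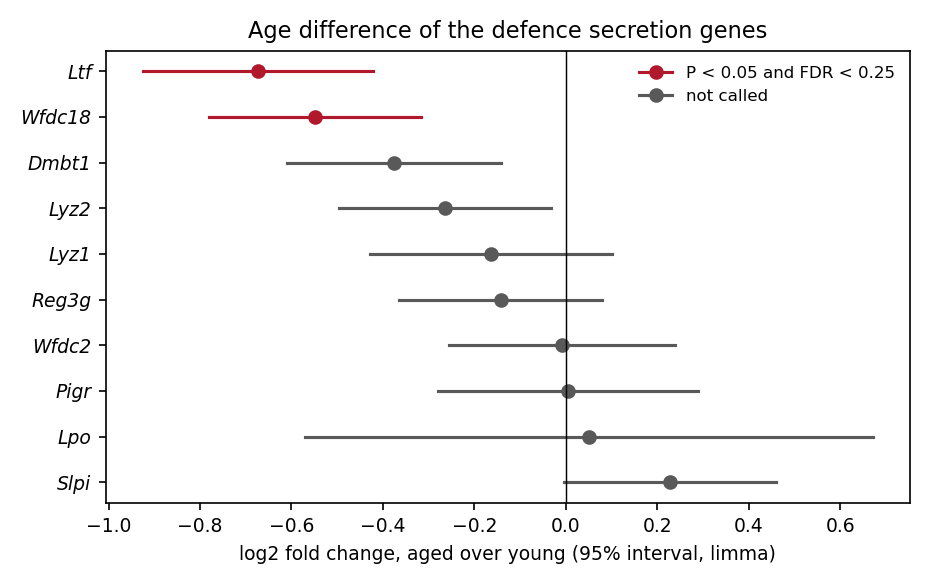
Log2 fold change of aged over young mucosa for each of the 10 genes (horizontal axis), with the 95% confidence interval of the limma fit as lines and red for the genes called. The intervals of *Ltf*, *Wfdc18*, *Dmbt1* and *Lyz2* lie below 0, and those of the other 6 genes include 0.

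*Lyz1* and *Lyz2* encode the secretory and the macrophage type of lysozyme. *Lyz1* was at 10905 and 11915 on the young arrays and at 10195 and 10146 on the aged arrays, and *Lyz2* at 2152 and 2091 on the young and 1737 and 1795 on the aged arrays. For both genes the aged arrays lay below the young ones without overlap. The log2 fold changes were -0.16 for *Lyz1* (SE 0.088, 95% confidence interval -0.43 to 0.10, limma FDR = 0.5389) and -0.26 for *Lyz2* (SE 0.077, 95% confidence interval -0.50 to -0.03, limma FDR = 0.3391), neither of them called. Each gene has 1 probe and the transcripts are closely related, so how far each probe also reads the other copy was not tested. Against 2.33% of all genes called lower in aged mucosa, 4 of 12 tissue macrophage markers were called lower (*Cx3cr1*, *Cd68*, *Mrc1* and *C1qc*) and 0 higher. The summed level of all 12 markers was 14953 to 15168 on the young arrays and 12310 to 12459 on the aged arrays. The part of macrophages in the *Lyz2* values was not tested.

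*Lpo*, lactoperoxidase, uses hydrogen peroxide to turn thiocyanate into an antimicrobial oxidant. On the log2 scale it had the widest spread between arrays of an age among the 10 genes. Its level was 176 and 250 on the young arrays and 219 and 216 on the aged arrays. Both aged arrays lay between the young ones. The log2 fold change was 0.05 with a wide interval (SE 0.208, 95% confidence interval -0.57 to 0.67, limma FDR = 0.9338), and a change within that interval could not be told from none.

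*Pigr*, the polymeric immunoglobulin receptor, carries IgA and IgM across the epithelium. Its level was 7011 and 6396 on the young arrays and 6521 and 6922 on the aged arrays, which overlap, and the log2 fold change was 0.00 (SE 0.095, 95% confidence interval -0.28 to 0.29, limma FDR = 0.9859). It has 2 probes of very unlike intensity, so the level above lies between them and matches neither. A_55_P1960999 was at 126333 in young and 132212 in aged mucosa on average, and A_55_P2645225 at 356 and 342. Their log2 fold changes were 0.07 and -0.06. The difference between these fold changes was 0.12 (95% confidence interval -0.14 to 0.38, limma FDR = 0.9076). *Jchain*, which joins IgA and IgM into the polymers that Pigr carries, was at 7595 and 7297 on the young arrays and at 7358 and 6196 on the aged arrays (limma FDR = 0.678), and also overlapped between ages.

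*Slpi* encodes an inhibitor of neutrophil elastase that also kills bacteria. Averaged over its probes it was at 767 and 785 on the young arrays and at 891 and 927 on the aged arrays. Both aged arrays were above both young ones, but the log2 fold change of 0.23 (SE 0.078, limma FDR = 0.3875) was not called. The 2 probes behind this average did not move alike.

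The probe A_52_P472324 read 2841 and 2942 on the young arrays and 6741 and 6995 on the aged arrays. Its log2 fold change was 1.25, or 2.38-fold higher in aged mucosa (SE 0.079, limma FDR over all probes = 0.1648). The probe A_66_P112306 read 207 and 209 on the young arrays and 118 and 123 on the aged arrays, a log2 fold change of -0.79, or 1.73-fold lower (SE 0.078, limma FDR over all probes = 0.1738). Each probe was called, in opposite directions, and neither set of arrays overlapped. The scanned signals separated the ages in the same directions. For the former they were 3195 and 2856 on the young and 6592 and 6934 on the aged arrays. For the latter they were 244 and 218 on the young and 135.5 and 128 on the aged arrays.

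The difference between the 2 log2 fold changes was 2.04 (SE 0.090, 95% confidence interval 1.78 to 2.30, limma FDR = 0.2076 over genes with at least 2 probes). Of 8705 such genes, 2 (0.023%), *Slpi* and *Sprr2a2*, had a called difference between their 2 most intense probes. In 4 of them (0.046%), *Slpi*, *Abcb1b*, *Oas2* and *Pla2g10*, both probes were called and in opposite directions, while 32.8% had probes of opposite sign whatever the size. The test of this difference was added after the probe values had been seen. Which transcripts of *Slpi* the probes read was not analysed here, so no direction with age is given for the gene. Of all 12 probes of the 10 genes, 4 were called, 1 higher and 3 lower, where 4.5% of all probes were called.

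**Figure D3:**
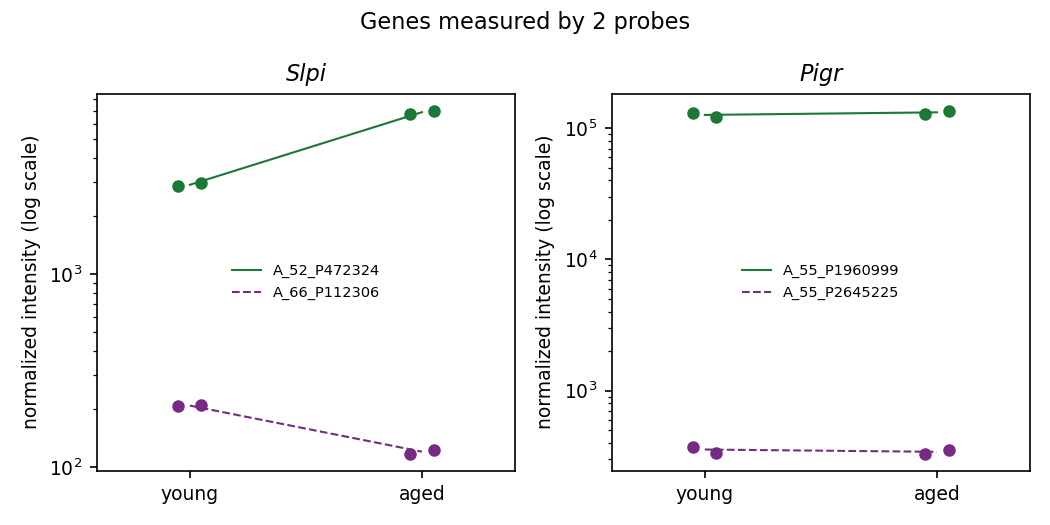
Normalized intensity (vertical axis, log scale) of each of the 2 probes of *Slpi* and of *Pigr* on the 4 arrays, with lines that join the means of the ages. One *Slpi* probe is higher on both aged arrays and the other is lower on both, while both *Pigr* probes overlap between the ages.

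The calls for *Ltf* and *Wfdc18* rest on 2 arrays per age: without any 1 of the 4 arrays (young 1, young 2, aged 1 or aged 2), limma called 0 of the 10 genes and 0 of all genes (2 of the 10, and 3289 to 5317 of all, had an unadjusted P below 0.05), although the log2 fold change stayed between -0.72 and -0.63 for *Ltf* and between -0.58 and -0.52 for *Wfdc18*. *Wfdc18* was also not called when arrays were scaled to their 75th percentile in place of quantile normalization (-0.53, limma FDR = 0.3077).

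**Figure D4:**
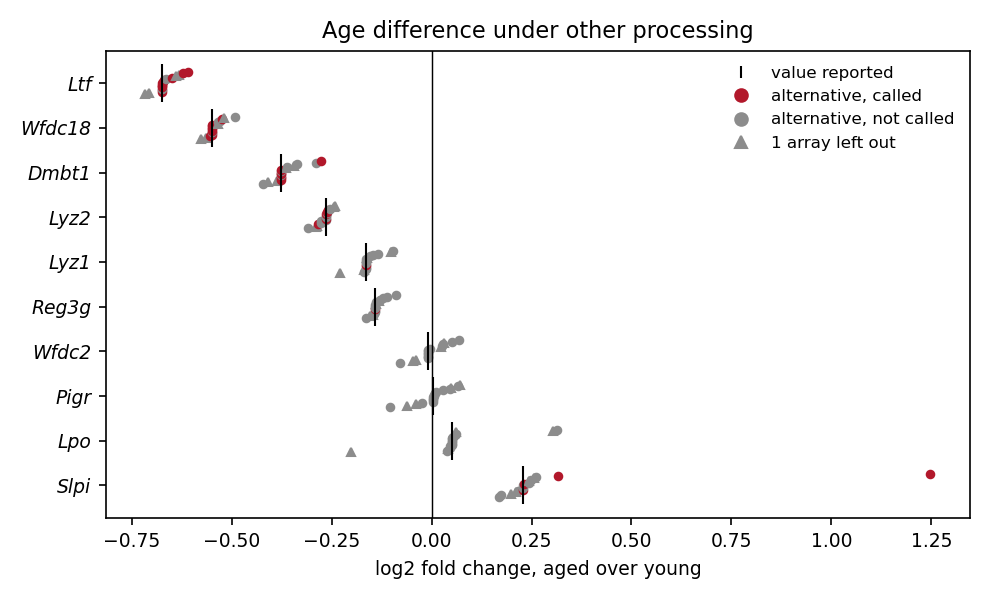
Log2 fold change of aged over young mucosa (horizontal axis) for each of the 10 genes under the processing reported (bar) and its alternatives (points), with triangles for fits that left out 1 array. *Ltf*, *Wfdc18*, *Dmbt1*, *Lyz2*, *Lyz1* and *Reg3g* stay below 0 throughout, and *Wfdc2*, *Pigr* and *Lpo* lie on both sides of 0.

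The families these genes belong to were then read from the same fit. Of 108 further genes listed, 101 were measured, and their median log2 fold change was -0.15. Of these, 18 (17.8%) were called, 5 higher and 13 lower in aged mucosa, against 3.98% of all genes (1.65% higher, 2.33% lower). Of the 56 with a mean level of at least 100, 16 (28.6%) were called, where 5.41% of all genes at that level were called. The lists were drawn up with earlier results of these data known, and no test over a list was made.

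The iron-binding proteins did not move together. Beside *Ltf*, 2 of the 5 others were called and both were higher in aged mucosa, where 1.65% of all genes were called higher. *Lcn2*, lipocalin 2, which captures bacterial iron carriers, was at 2151 and 2195 on the young arrays and at 4688 and 5068 on the aged arrays, a log2 fold change of 1.17 (limma FDR = 0.178), and both of its probes were called higher. *Meltf*, melanotransferrin, a relative of lactoferrin held at the cell surface, rose from 474 ± 6.55 to 647 ± 29.9 (SD, n = 2), a log2 fold change of 0.45 (limma FDR = 0.2451).

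Among 21 other genes listed with the WAP domain family, 1 was called higher and 2 lower, where 1.65% of all genes were called higher and 2.33% lower. *Wfdc15b* rose from 122 ± 1.23 to 264 ± 7.42 (log2 fold change 1.12) and *Wfdc12* fell from 598 ± 33.1 to 286 ± 4.14 (SD, n = 2, log2 fold change -1.06). The other gene called lower, *Wap*, was not well above background on either aged array. WAP domain genes thus differed in direction, with *Wfdc18* and *Wfdc12* lower, *Wfdc15b* higher and *Wfdc2* not called.

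Of 16 scavenger receptor cysteine-rich genes other than *Dmbt1*, 4 were called, all lower in aged mucosa, where 2.33% of all genes were called lower. *Cd163l1*, a scavenger receptor, fell from 938 ± 22.6 to 349 ± 10.8 (log2 fold change -1.42) and *Lgals3bp*, a secreted galectin-3 ligand, from 12877 ± 293 to 8079 ± 183 (log2 fold change -0.67). The others, *Loxl1* and *Loxl2*, are not defence proteins but cross-link collagen and elastin, and they fell from 3129 to 1904 and from 1263 to 630.2 on average.

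Of 28 other antimicrobial peptides and lectins, 6 were called and all were lower, where 2.33% of all genes were called lower. *Pglyrp1*, a peptidoglycan-binding protein of neutrophil granules, was at 18836 and 17523 on the young arrays and at 8117 and 7304 on the aged arrays, a log2 fold change of -1.24. *Itln1*, a lectin for microbial sugars, had -1.23, *S100a9* and *S100a8*, which together form the metal-withholding protein calprotectin, had -1.08 and -1.07, and *Ccl20*, a chemokine with antimicrobial activity, had -0.58. The sixth gene, *Ang4*, a ribonuclease, had the smallest change. The limma FDR of these 5 genes was between 0.178 and 0.2031.

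Genes for the supply of peroxide or thiocyanate differed in direction. *Duoxa1*, the maturation factor of the peroxide-making dual oxidase, fell from 264 ± 9.17 to 147 ± 25.9 (log2 fold change -0.86), although 1 of its 2 probes was not called. *Slc26a9*, an anion transporter, rose from 296 ± 14.2 to 424 ± 15.3 (SD, n = 2, log2 fold change 0.52). The further lysozyme genes (8 measured), genes listed for IgA and IgM transport (7) and Reg genes (6) held no called gene. Of those Reg genes, 4 stayed close to background on every array. The antibody genes *Igha* and *Ighm* themselves were not among the genes measured, so their change with age was not tested.

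**Figure D5:**
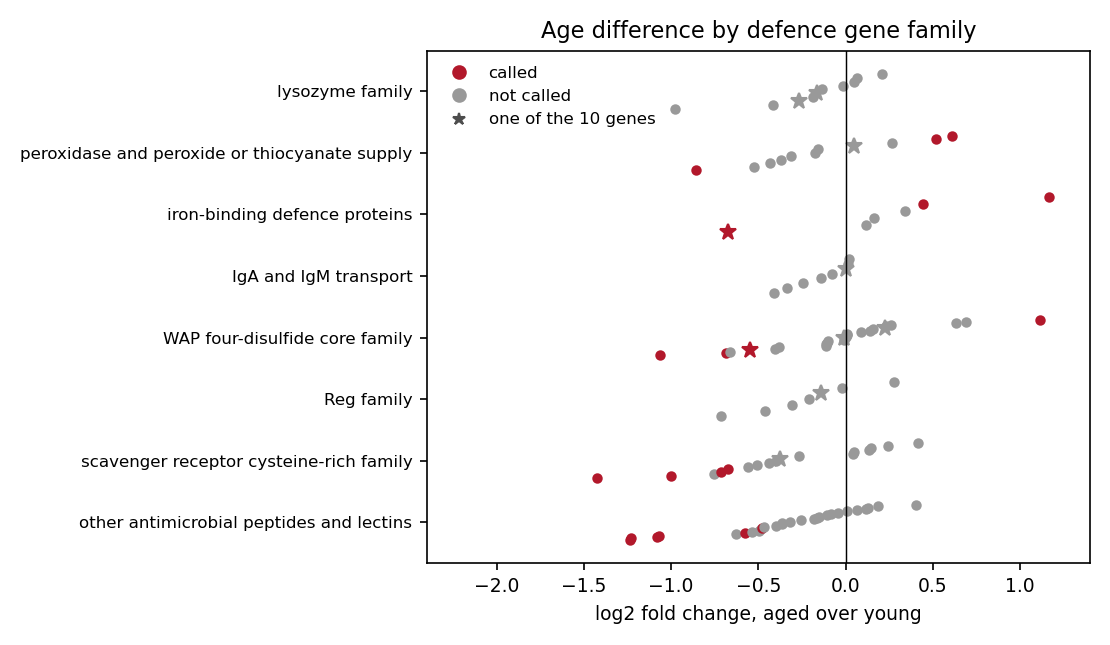
Log2 fold change of aged over young mucosa (horizontal axis) of every measured gene of the 8 defence families, one row per family, with stars for the 10 genes and red for the genes called; height within a row only keeps points apart. The scavenger receptor and antimicrobial peptide rows hold called genes only below 0, while the iron-binding row has *Ltf* below 0 and *Lcn2* and *Meltf* above it.

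Marker genes of cells that could hold these transcripts were read beside them. *Ltf* is itself on the list of 17 neutrophil markers. Of the 15 other measured markers, 4 were called lower (*S100a8*, *S100a9*, *Mmp9* and *Ngp*) and 2 higher (*Lcn2* and *Chil3*). The median log2 fold change of the 15 was -0.40. Among all genes, 2.33% were called lower and 1.65% higher. The summed level of those 15 was 129094 to 134567 on the young and 141930 to 142808 on the aged arrays, and most of it was *Csf3r*, the receptor of a granulocyte growth factor, at 115367 ± 4451 and 123784 ± 2.76 (SD, n = 2). Without *Csf3r* the sum was 16053 to 16874 on the young and 18148 to 19022 on the aged arrays, with *Chil3* at 735 in young and 6523 in aged mucosa and *Lcn2* at 2173 and 4878 on average. *Chil3* and *Lcn2*, the 2 markers called higher, were then left out as well, a choice made after their values were seen. The 12 remaining markers summed to 13156 to 13954 on the young and 7178 to 7190 on the aged arrays. The largest were *S100a9* (7362 and 3474 on average) and *S100a8* (3523 and 1679). The lower aged sum follows from that choice, since with *Chil3* and *Lcn2* the sum was higher in aged mucosa. *Ngp* was well above background on only 1 aged array, and *Fcnb* on no array. Of the 15 markers, 9 had a mean level of at least 100. The part of neutrophils in the *Ltf* values was not tested.

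The counts of the lists that follow stand beside 1.65% of all genes called higher in aged mucosa and 2.33% called lower. Of 10 markers of Bowman and serous glands, 2 were called higher (*Muc5b* and *Ascl3*) and 2 lower (*Bhlha15* and *Kcnn4*). The summed level of all 10 markers was 94588 to 97982 on the young arrays and 110252 to 111357 on the aged arrays. It was led by the gel-forming mucin *Muc5b*, at 46200 and 62488 on average. Without *Muc5b* the sum was 49667 to 50503 on the young arrays and 48292 to 48340 on the aged arrays. *Aqp5*, a water channel of gland cells, was at 24486 in young and 27629 in aged mucosa on average. Of the other lists, airway club and goblet cells had 2 markers called higher (*Muc5b* and *Scgb3a1*) and 1 lower (*Muc5ac*) of 10, and B and plasma cells had 1 lower (*Derl3*) of 11. Ciliated cells had 0 called of 10. The part of each cell type in the values of the 10 genes was not tested.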

How the data were processed

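RNA of 4 pools was measured on Agilent SurePrint G3 Mouse arrays. Per the labels and methods, the authors extracted spots with Agilent Feature Extraction 11.0.1.1 and deposited, for each array, spot and local background intensities (medians), a processed intensity and flags, with no normalization between arrays. A deposited value table held the same processed intensity for all 62976 spots and was not a separate source.

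From the median intensities, the background was corrected with limma 3.58.1 under R 4.3.3 (normexp, offset 0). Control and outlier-flagged spots were left out, spots of a probe averaged, log2 values quantile normalized, and probes of a gene averaged. The study's methods name limma, quantile normalization and the thresholds, but not the background method. Probe accessions were matched to a RefSeq table (GRCm38.p6): 32994 of 56605 probes (58.3%) matched. The arrays were designed on another build, so no gene coordinates but those of the promoter windows are given.

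Ages were compared with lmFit and eBayes on all 4 arrays without covariates, over 45616 genes, after a test on simulated data. The smallest FDR was 0.0946, and an exact permutation test of 2 against 2 arrays could not go below p = 0.333. The number of arrays limits the precision. All 10 genes are named; of the wider lists, genes called with a mean of at least 100 (at most 5 per list by size of change); of the marker lists, the 2 brightest and those the text needs. Outside this rule, *Xist*, *Sry*, *Wap*, *Ang4*, genes named beside counts of 5 or fewer, *Fcnb* and the probes of *Slpi* were singled out after their values were seen. The members and lists were chosen with earlier results of these data known. Alternatives were other background corrections, normalizations, flags, dim-probe filters, probe choices, variance models, call rules, a replicate block and leaving out each array. A further called gene of the wider lists is left unnamed here.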

Additional observations from a re-analysis of the deposited data

How the results depend on the processing

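With 2 arrays per age, the count of calls moved with almost every choice. Of the 10 genes, 2 were called as reported, 1 with 75th percentile scaling of either the corrected or the processed signal, 1 under the DEG rule, 4 without background correction, with the processed signal after quantile normalization or with the most intense probe per gene, 5 with a normexp offset of 50 or with dim probes left out, 7 with an intensity trend in eBayes and 0 at an FDR below 0.05 (4 at an unadjusted P below 0.05). The counts over all genes were 1817 as reported, 895 under the DEG rule, 2991 and 4585 with offsets of 16 and 50, 4029 without background correction, 4376 with the processed signal after quantile normalization, 7251 with dim probes left out, 7124 with an intensity trend and 0 at an FDR below 0.05 (5992 at an unadjusted P below 0.05). With dim probes left out, 29504 genes were tested in place of 45616. The wider lists had 18 calls as reported, 34 with dim probes left out, 30 with an intensity trend and 28 with an offset of 50. Leaving out each array in turn gave 0 to 0 calls among the 10 genes, the wider lists and all genes.

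The replicate number used as a block left 0 calls by limma in each of the 3 counts (3 of the 10 genes and 5197 of all genes had an unadjusted P below 0.05). The deviations of same-numbered arrays from their group means had a correlation of -0.0779 over all genes. This value cannot settle whether the numbers pair the samples, and young 1 and aged 1 do share a slide. The slide as a random block could not be fitted, since 1 slide alone holds more than 1 array.

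Leaving aside the fits without an array, *Ltf* was called under 11 of 12 tested alternatives and *Wfdc18* under 9. *Wfdc18* was not called with either 75th percentile scaling or the block. *Dmbt1* was called under 7, *Lyz2* under 5, *Slpi* under 4, *Lyz1* and *Reg3g* under 1 each, and *Lpo*, *Pigr* and *Wfdc2* under 0. These alternatives are not separate checks. *Ltf* has 1 probe, and its log2 fold change was -0.6736 as reported, with the most intense probe and with dim probes left out. The direction of *Wfdc2* turned to 0.0515 and 0.0696 with 75th percentile scaling of the corrected and the processed signal, to 0.0272 with cyclic loess and to 0.0274 with the processed signal after quantile normalization. Without 1 array it ran from -0.0472 to 0.0307, above 0 without aged replicate 1 or young replicate 1. *Pigr* turned to -0.023 with the processed signal after quantile normalization, and without 1 array ran from -0.0614 to 0.071, below 0 without aged replicate 2 or young replicate 2. *Lpo* ran from -0.2021, without young replicate 1, to 0.3036, without young replicate 2. *Slpi* was 1.25 with its most intense probe alone. The difference between the *Slpi* probes stayed between 1.83 and 2.20 but was not called with 75th percentile scaling, with the processed signal or without any 1 array. The cause of these changes was not tested.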
